A study of Mus musculus with 24 samples.

Results

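The 9 genes described here mark the thick ascending limb of the loop of Henle, a segment of the kidney tubule: Umod, Egf, Slc12a1, Kcnj1, Bsnd, Cldn16, Cldn19, Cldn10 and Ptger3. They were chosen by name as known genes of that segment, and each has 1 of the 14785 gene entries measured. Expression was measured by bulk RNA sequencing of kidneys from 24 male C57/BL6 mice, labelled as 8 weeks of age, in 6 groups of 4 animals taken from 10 operated per group. Sham surgery was the control. Unilateral ureteral obstruction (UUO), in which the ureter of one kidney is tied off, was kept for 2 days (UUO2) or 7 days (UUO7). In 3 further groups 7 days of UUO were followed by surgical re-implantation of the ureter and 1, 2 or 4 weeks of recovery (R1W, R2W and R4W). The labels name no genetic alteration in any group. The labels call the tissue kidney and the series title calls it cortical. Cortex holds only the upper stretch of the thick ascending limb, and the share of medulla in each sample is not given.

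The thick ascending limb takes up salt without water and so dilutes the tubular fluid and drives urine concentration. Salt enters its cells through the sodium-potassium-chloride cotransporter NKCC2, potassium is returned to the lumen through the channel ROMK, and chloride leaves on the blood side through channels that need the subunit barttin. The resulting voltage draws calcium and magnesium between the cells through pores of claudin proteins, and the same cells secrete uromodulin and are a main renal source of epidermal growth factor.

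The RefSeq promoter table (GRCm38.p6) held 11 start-site windows for 8 of the 9 genes, each reaching 250 bases upstream of its own start site. Of these, 4 are shown because members that moved in opposite directions can be set side by side: the bases upstream of the start of Umod and Slc12a1, which were lower after 7 days of obstruction, and of Cldn16 and Cldn19, which were higher as deposited (Cldn19 was not called after rescaling). Each is trimmed to the bases before the annotated gene start, which left 230 bases for Umod, 155 for Slc12a1, 250 for Cldn16 and 223 for Cldn19. No base is marked.
Umod, chr7:119479283-119479512, minus strand: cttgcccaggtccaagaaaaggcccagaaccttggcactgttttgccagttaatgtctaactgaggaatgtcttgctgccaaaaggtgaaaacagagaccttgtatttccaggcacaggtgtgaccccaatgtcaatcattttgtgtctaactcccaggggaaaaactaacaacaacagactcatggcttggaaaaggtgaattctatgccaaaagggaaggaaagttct
Slc12a1, chr2:125152350-125152504, plus strand: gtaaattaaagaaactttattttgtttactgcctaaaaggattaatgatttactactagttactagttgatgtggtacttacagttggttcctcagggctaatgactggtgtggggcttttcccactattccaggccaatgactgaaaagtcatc
Cldn16, chr16:26462885-26463134, plus strand: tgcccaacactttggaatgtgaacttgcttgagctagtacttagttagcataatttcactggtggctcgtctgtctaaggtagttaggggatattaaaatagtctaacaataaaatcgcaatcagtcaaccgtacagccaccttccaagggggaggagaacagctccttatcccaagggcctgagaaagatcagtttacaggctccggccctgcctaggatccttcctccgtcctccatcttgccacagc
Cldn19, chr4:119255191-119255413, plus strand: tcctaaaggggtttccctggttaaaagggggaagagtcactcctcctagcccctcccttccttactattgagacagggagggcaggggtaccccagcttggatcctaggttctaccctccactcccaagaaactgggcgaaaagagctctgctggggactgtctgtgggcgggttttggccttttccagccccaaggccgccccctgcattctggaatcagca

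All 24 libraries were compared in FPKM, a fragment count divided by transcript length and library depth, which allows levels of different genes to be set side by side. A gene was called at a limma adjusted p under 0.05 (Benjamini-Hochberg over all 14785 genes) on log2(FPKM + 1), and log2 fold changes below are on that scale, where low values are compressed. The median gene was 0.42 higher on the log2 scale in UUO7 than in sham, 0.37 higher in R1W, 0.32 in R2W, 0.30 in R4W and 0.09 in UUO2. Values rescaled to remove that shift are therefore given beside many of the results below. The implied depth was 24525000 to 35350000 fragments in 20 libraries and is unknown in the 4 UUO2 libraries, which lack the whole-read steps of the others. This library difference coincides with the UUO2 group and cannot be told apart from it. Library UUO2 2 stood apart from the other UUO2 libraries in members and in other tubule genes: its summed injured-tubule markers were 779 FPKM (others 1190 to 1435) and its proximal tubule markers 5635 FPKM (others 3740 to 4480). Sham 2 stood apart in medullary, urothelial and fat genes, with Akr1b3 at 559 FPKM and a range of 50.7 to 64.0 in the other sham libraries. Some recovery libraries did so too: Akr1b3 was 325 to 382 FPKM in R1W 2, R2W 1, R4W 1 and R4W 3, fat markers summed to 1558 in R4W 1 and 383 in R4W 3 (281 in sham 2), and urothelial markers to 42.6 to 141 in R4W (1.45 to 34.2 in sham). The part of these in the results was not tested. Inner medulla and papilla markers summed to 437 to 1001 FPKM in sham, 463 to 523 in UUO7 and 592 to 861 in R4W, and their part in the results was not tested.

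**Figure D1:**
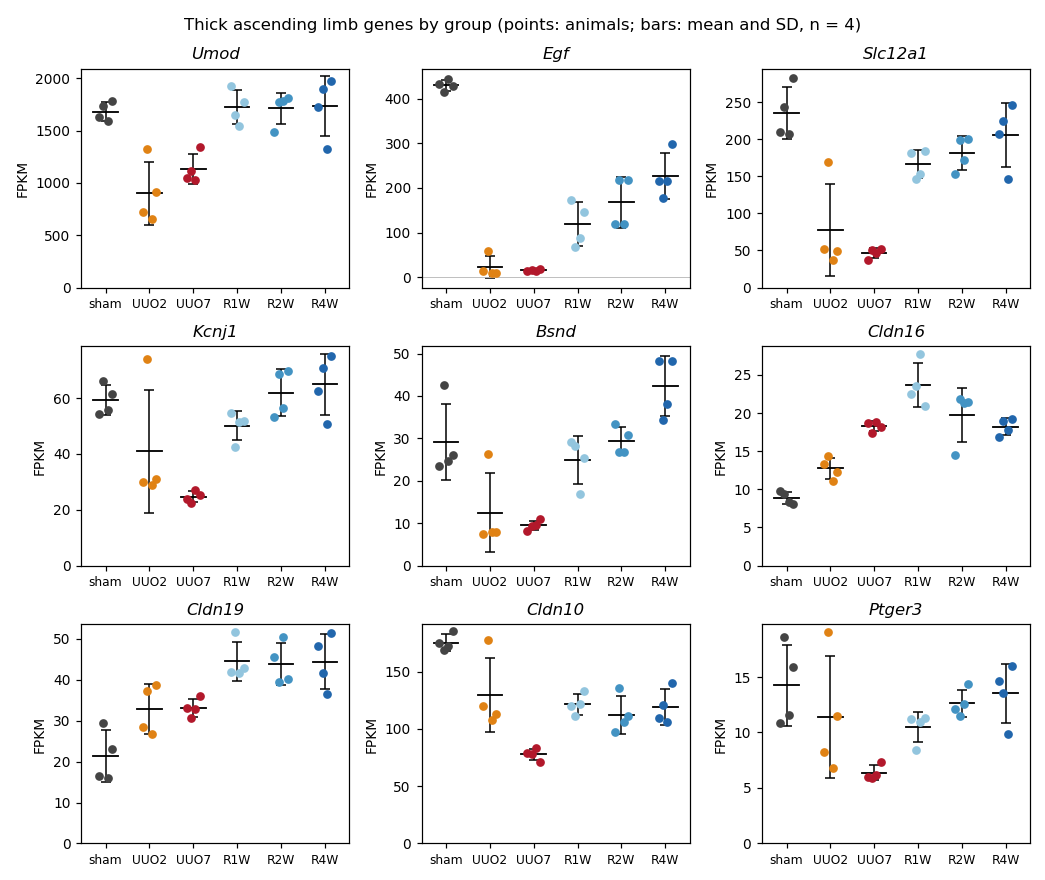
FPKM of each of the 9 genes (vertical axes, own range per panel) in the 6 groups (horizontal axes); points are animals, bars the mean and SD, n = 4. Egf is 9.14 to 58.2 FPKM in UUO2 and 13.5 to 17.3 in UUO7, far under sham, while Cldn16 is above the highest sham animal in all 20 other animals.

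After 7 days of obstruction all 9 genes differed from sham as deposited, and 8 of them after rescaling, when Cldn19 was not called (0.19, limma adjusted p = 0.25). Of all genes 77.9% were called as deposited and 73.0% after rescaling. Umod, Egf, Slc12a1, Kcnj1, Bsnd, Cldn10 and Ptger3 fell, to between 67.4% of the sham mean for Umod and 3.54% for Egf. Cldn16 and Cldn19 rose as deposited, to 206% and 155% of the sham mean, and were at 147% and 112% of it after rescaling. After reversal Umod, Slc12a1, Kcnj1, Bsnd and Ptger3 were not called against sham at 4 weeks by limma, and Egf and Cldn10 were still lower. Of those 5, the authors' deposited table calls Umod, Slc12a1 and Ptger3 lower at 4 weeks, and not Kcnj1 or Bsnd. Cldn16 and Cldn19 were at 205% and 208% of the sham mean at 4 weeks as deposited, and at 158% and 162% after rescaling. In bulk tissue fewer cells of a type and less RNA per cell cannot be told apart.

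The 2 secreted products fell by unequal amounts. Umod encodes uromodulin, the most abundant protein of normal urine, and lies on chromosome 7 (119462711 to 119479282, minus strand, GRCm38). It was the most abundant of the 9 genes. Its values in sham were 1625, 1731, 1587 and 1785 FPKM. In UUO2 they were 719, 1324, 657 and 912 FPKM, and in UUO7 they were 1047, 1117, 1027 and 1342 FPKM. Both obstructed groups lay wholly under sham. Against sham the log2 fold change was -0.95 (SE 0.16, limma adjusted p = 6.73e-05) in UUO2 and -0.58 (SE 0.16, adjusted p = 0.00299) in UUO7. UUO7 was higher than UUO2 as deposited (0.37, adjusted p = 0.0483) and level with it after rescaling (0.02, adjusted p = 0.918). The call for Umod in UUO7 against UUO2 was also lost without UUO2 1, 3 or 4 or UUO7 1, 2 or 4 (adjusted p from 0.0527 to 0.202). After reversal the values were 1927, 1653, 1549 and 1777 FPKM at 1 week, 1489, 1776, 1780 and 1807 at 2 weeks, and 1729, 1896, 1328 and 1977 at 4 weeks. These ranges overlap sham in every recovery group. After rescaling they do not: sham ran from 1991 to 2212, and R1W from 1384 to 1811, R2W from 1317 to 1793 and R4W from 1249 to 1920. At 1 week Umod was then called lower (-0.41, adjusted p = 0.0385; as deposited 0.03, adjusted p = 0.86). Umod in R4W was 103% ± 17.2 (SD, n = 4) of the sham mean as deposited and 79.4% ± 13.8 after rescaling. At 4 weeks this was a log2 fold change of 0.03 (adjusted p = 0.889) and, rescaled, -0.35 (adjusted p = 0.0863). In the authors' deposited table it is -0.34, with an adjusted p of 0.0144.

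Egf encodes the precursor of epidermal growth factor, a mitogen for tubule cells, and lies on chromosome 3 (129677565 to 129755316, minus strand). Sham animals had 433, 416, 446 and 429 FPKM. UUO2 animals had 12.8, 58.2, 9.14 and 10.4 FPKM, and UUO7 animals had 13.5, 16.1, 14.1 and 17.3. No obstructed animal reached 60 FPKM, and replicate 2 was the highest of UUO2. The log2 fold change was -4.62 (SE 0.40, adjusted p = 1.47e-08) in UUO2 and -4.74 (SE 0.40, adjusted p = 1.47e-09) in UUO7, the largest change of any member in either comparison. Without replicate 2 the value of Egf in UUO2 against sham was -5.21. Every recovering animal lay between the obstructed and the sham ranges. R1W animals had 174, 67.3, 87.5 and 146 FPKM, R2W animals 119, 218, 119 and 217, and R4W animals 216, 177, 216 and 299. The highest recovering animal, at 299 FPKM, was still under the lowest sham animal, at 416. Group means were 27.6% ± 11.5, 39.0% ± 13.2 and 52.7% ± 11.9 of the sham mean (SD, n = 4 each). At 4 weeks Egf remained called as lower (-0.95, SE 0.40, adjusted p = 0.0409; rescaled -1.32, adjusted p = 0.00991). The call for Egf in R4W against sham was lost when any 1 sham library, or R4W 1, 2 or 3, was left out (adjusted p from 0.0591 to 0.10), although the groups did not overlap. In the authors' deposited table Egf at 4 weeks is -1.34, with an adjusted p of 7.06e-15.

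The salt transport genes fell together during obstruction and came back toward sham after it. Slc12a1 encodes NKCC2, the target of loop diuretics (chromosome 2, 125152505 to 125230002, plus strand). Its values were 210, 243, 207 and 282 FPKM in sham, 52.6, 170, 37.7 and 49.6 in UUO2, and 37.8, 51.2, 46.8 and 51.3 in UUO7. All obstructed animals were under all sham animals, and UUO2 replicate 2 was more than 3 times any other obstructed animal. These were log2 fold changes of -1.85 (SE 0.29, adjusted p = 2.53e-05) in UUO2 and -2.31 (SE 0.29, adjusted p = 3.47e-07) in UUO7. Recovering animals had 181, 147, 153 and 184 FPKM at 1 week, 153, 199, 172 and 200 at 2 weeks, and 207, 224, 146 and 246 at 4 weeks. Slc12a1 was under every sham animal in R1W and R2W, and the R4W range overlapped sham as deposited. After rescaling R4W ran from 138 to 239 and sham from 262 to 349, without overlap. Against UUO7 it was higher by 1.81 in R1W (adjusted p = 8.59e-04) and by 2.10 in R4W (adjusted p = 1.74e-05). It was not called against sham at 1 week (-0.50, adjusted p = 0.128), 2 weeks (-0.37, adjusted p = 0.257) or 4 weeks (-0.21, adjusted p = 0.537). After rescaling it was called at 1 week (-0.94, adjusted p = 0.0089) and at 2 weeks (-0.76, adjusted p = 0.0322), and not at 4 weeks (-0.58, adjusted p = 0.10). In the authors' deposited table Slc12a1 at 4 weeks against sham is -0.57, with an adjusted p of 0.00176.

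Kcnj1 encodes ROMK, the potassium channel of the luminal membrane (chromosome 9, 32372493 to 32399197, plus strand), which the collecting duct also expresses. It measured 54.2, 66.0, 55.8 and 61.5 FPKM in sham, 29.9, 73.9, 28.9 and 31.2 in UUO2, and 23.8, 22.6, 27.1 and 25.3 in UUO7. UUO7 lay wholly under sham, whereas UUO2 replicate 2 exceeded every sham animal. Kcnj1 fell with a log2 fold change of -0.64 (SE 0.20, adjusted p = 0.0127) in UUO2 and -1.23 (SE 0.20, adjusted p = 1.26e-05) in UUO7. Kcnj1 in UUO2 against sham was -0.96 without UUO2 2, and its call was lost without UUO2 1 (adjusted p = 0.0524) or UUO2 3 (adjusted p = 0.0556). In the authors' deposited table Kcnj1 in UUO2 is -0.64 against sham, with an adjusted p of 0.0639. Recovery values ran from 42.6 to 54.6 FPKM at 1 week, from 53.0 to 69.7 at 2 weeks and from 50.7 to 75.2 at 4 weeks. At 1 week Kcnj1 was not called against sham as deposited (-0.24, adjusted p = 0.286) and was called lower after rescaling (-0.68, adjusted p = 0.00846). At 4 weeks Kcnj1 was not called (0.11, adjusted p = 0.632), and after rescaling the sign turned without a call (-0.26, adjusted p = 0.317). Collecting duct principal cell markers (5 of 5 measured) summed to 352 to 895 FPKM in sham, 357 to 786 in UUO2, 269 to 362 in UUO7 and 586 to 1206 in R4W. Their part in the Kcnj1 values was not tested.

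Bsnd encodes barttin, the subunit of the basolateral chloride channels, in the thick ascending limb and also in distal and intercalated cells (chromosome 4, 106483456 to 106492283, minus strand). It measured 23.5, 42.5, 24.6 and 26.2 FPKM in sham, 7.48, 26.4, 7.93 and 7.89 in UUO2, and 8.09, 9.33, 9.5 and 10.9 in UUO7. Single libraries stood apart in 2 groups, sham replicate 2 and UUO2 replicate 2, and UUO7 lay wholly under sham. Bsnd fell with a log2 fold change of -1.33 (SE 0.28, adjusted p = 4.77e-04) in UUO2 and -1.49 (SE 0.28, adjusted p = 4.97e-05) in UUO7. At 1 week Bsnd was not called against sham as deposited (-0.21, adjusted p = 0.501) and was called lower after rescaling (-0.64, adjusted p = 0.0443). After 4 weeks Bsnd measured 48.2, 34.4, 38.0 and 48.3 FPKM, each above sham animals 1, 3 and 4. Bsnd in R4W against sham was not called (0.55, SE 0.28, adjusted p = 0.0874) and was called without sham 2 (0.74, adjusted p = 0.0287). After rescaling it was 0.18, adjusted p = 0.591. Intercalated cell markers (5 of 5 measured) summed to 96.1 to 99.2 FPKM in sham, 46.4 to 51.3 at 7 days and 107 to 140 after 4 weeks of recovery, and their part in the Bsnd values was not tested.

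**Figure D2:**
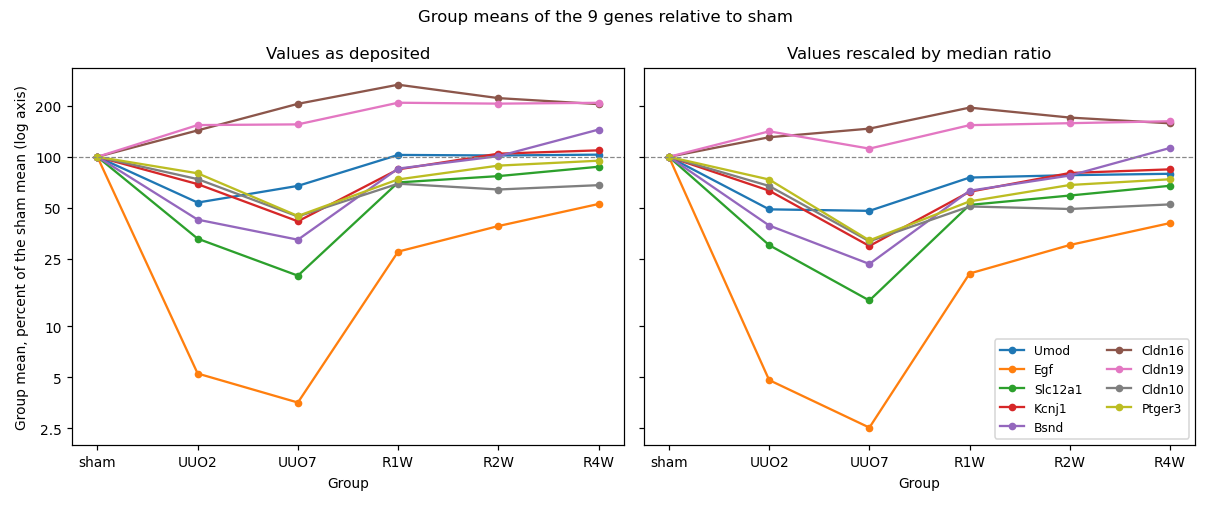
Group means of the 9 genes as a percent of the sham mean (vertical axis, logarithmic) over the 6 groups (horizontal axis), from values as deposited (left) and rescaled by median ratio (right). Egf reaches 3.54% in UUO7 as deposited and 2.52% rescaled, and Cldn16 and Cldn19 are the only genes above 100% in every group after sham in both panels.

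The claudins split by type. Claudin-16 and claudin-19 form the pore for calcium and magnesium, and inherited loss of either causes urinary loss of both ions. Cldn16 lies on chromosome 16 (26463135 to 26482765, plus strand). Its values were 9.79, 9.33, 8.31 and 8.12 FPKM in sham, 13.3, 14.3, 11.04 and 12.3 in UUO2, and 18.6, 17.4, 18.9 and 18.2 in UUO7. All 8 obstructed animals were above all sham animals. Cldn16 rose with a log2 fold change of 0.47 (SE 0.11, adjusted p = 0.00118) in UUO2 and 0.97 (SE 0.11, adjusted p = 7.59e-08) in UUO7. It remained called after rescaling, with 0.35 (adjusted p = 0.0198) and 0.52 (adjusted p = 6.88e-04), except that Cldn16 in UUO2 against sham was lost when UUO2 2 was also left out (adjusted p = 0.0606). After reversal it measured 22.5, 23.6, 27.7 and 20.9 FPKM at 1 week, 14.4, 21.9, 21.3 and 21.4 at 2 weeks, and 16.9, 18.9, 17.8 and 19.3 at 4 weeks. Every recovering animal was above every sham animal, and R1W above every UUO7 animal. Cldn16 was 267% ± 32.8 of the sham mean in R1W and 205% ± 12.4 in R4W (SD, n = 4), and the 4-week value was lower than that at 1 week (-0.36, SE 0.11, adjusted p = 0.0281). Cldn16 in R4W against R1W was not called after rescaling (-0.29, adjusted p = 0.097), nor without R1W 3, R4W 1 or R4W 3 (adjusted p from 0.0586 to 0.132). Cldn16 in R4W against sham was 0.96 (adjusted p = 2.77e-07) as deposited and 0.61 rescaled.

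Cldn19 lies on chromosome 4 (119255414 to 119262438, plus strand). It measured 16.6, 29.6, 15.9 and 23.2 FPKM in sham, 28.5, 37.3, 26.7 and 38.8 in UUO2, and 33.1, 30.7, 32.9 and 36.0 in UUO7. UUO2 overlapped sham through sham replicate 2, and UUO7 did not overlap. Cldn19 rose with a log2 fold change of 0.63 (SE 0.16, adjusted p = 0.00263) in UUO2 and 0.65 (SE 0.16, adjusted p = 8.14e-04) in UUO7. The UUO7 call rests on the scaling: the rescaled value was 0.19 (adjusted p = 0.25), and the authors' deposited table gives 0.22 with an adjusted p of 0.198. For Cldn19 in UUO2 against sham the authors' deposited table gives 0.43 with an adjusted p of 0.062. Recovering animals had 41.8, 51.7, 41.6 and 42.9 FPKM at 1 week, 45.5, 39.5, 50.5 and 40.3 at 2 weeks, and 48.2, 41.8, 36.5 and 51.4 at 4 weeks. All 12 were above every sham animal. Cldn19 in R4W was 208% ± 31.3 of the sham mean (SD, n = 4), a log2 fold change of 1.06 (SE 0.16, adjusted p = 9.51e-06) and of 0.70 rescaled (adjusted p = 3.05e-04).

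Cldn10 encodes the claudin of the sodium pore in the thick ascending limb, and a second form from another start site is known from the proximal tubule (chromosome 14, 118787908 to 118875489, plus strand). The gene-level values do not separate the forms. They were 175, 168, 172 and 186 FPKM in sham, 120, 177, 108 and 113 in UUO2, and 78.8, 77.9, 83.5 and 71.6 in UUO7. UUO7 lay wholly under sham, and UUO2 replicate 2 was the only obstructed animal within the sham range. Cldn10 fell with a log2 fold change of -0.46 (SE 0.13, adjusted p = 0.00444) in UUO2 and -1.16 (SE 0.13, adjusted p = 4.49e-08) in UUO7, and UUO7 was lower than UUO2 (-0.70, adjusted p = 5.91e-05). In recovery Cldn10 measured 120, 111, 122 and 133 FPKM at 1 week, 97.0, 136, 106 and 111 at 2 weeks, and 110, 121, 106 and 140 at 4 weeks. All 12 recovering animals were under every sham animal and above every UUO7 animal. At 4 weeks Cldn10 was 68.0% ± 8.83 of the sham mean (SD, n = 4; log2 fold change -0.56, SE 0.13, adjusted p = 6.33e-04). Proximal tubule markers were lower with it. In UUO7 7 of 7 were called lower, where 77.9% of all genes were called and 17.8% were called lower. In R4W 7 of 7 were called lower, where 66.4% of all genes were called. Their summed FPKM was 7854 to 9509 in sham, 2139 to 2717 in UUO7 and 4313 to 5592 in R4W. Their part in the Cldn10 values was not tested.

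Ptger3 encodes EP3, a receptor through which prostaglandin E2 restrains salt uptake in the segment (chromosome 3, 157566892 to 157645888, plus strand). Its values were 10.9, 18.6, 11.6 and 15.9 FPKM in sham, 8.24, 19.1, 6.78 and 11.5 in UUO2, and 6.00, 5.93, 6.20 and 7.37 in UUO7. UUO2 overlapped sham and UUO7 did not. The log2 fold change in UUO7 was -1.02 (SE 0.21, adjusted p = 1.98e-04). Ptger3 in UUO2 against sham was not called (-0.37, SE 0.21, adjusted p = 0.167), and without UUO2 replicate 2 it was (-0.63, adjusted p = 0.00548). R4W animals had 14.7, 13.5, 9.87 and 16.0 FPKM, and the difference from sham was -0.06 (SE 0.21, adjusted p = 0.818). In the authors' deposited table Ptger3 at 4 weeks is -0.51, with an adjusted p of 0.0141. At 1 week it was not called as deposited (-0.39, adjusted p = 0.109) and was called lower after rescaling (-0.80, adjusted p = 0.00272).

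Counted over the members, 8 of 9 were called in UUO2 against sham, 2 higher and 6 lower, where 49.2% of all genes were called and 17.0% were called lower. In UUO7 against sham 9 of 9 were called, 2 higher and 7 lower, where 77.9% of all genes were called and 17.8% were called lower. The median log2 fold change of the 9 was -1.16 in UUO7, beside 0.42 for all genes. Against sham 4 of 9 were called in each of R1W, R2W and R4W, with Cldn16 and Cldn19 higher and Egf and Cldn10 lower. The shares of all genes called were 74.1%, 69.0% and 66.4% in that order, each above 4 of 9. After rescaling 8 members were called in UUO2 (all genes 50.8%), 8 in UUO7 (73.0%), 9 in R1W, of which 7 were lower (68.3%), 5 in R2W (63.6%) and 4 in R4W (60.1%). All of these comparisons share the same 4 sham libraries.

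As deposited, all 4 animals of a group were above all 4 sham animals for 1 member in UUO2 and for 2 in each later group, and below them for 3 members in UUO2, 7 in UUO7, 3 in R1W, 3 in R2W and 2 in R4W. Over all genes the groups did not overlap in either direction for 42.8%, 73.7%, 66.3%, 62.6% and 64.5%. After rescaling all 4 were above sham for 0 members in UUO2, 1 in UUO7 and 2 in each recovery group, and below it for 3, 7, 7, 5 and 4 members in UUO2, UUO7, R1W, R2W and R4W. The shares of all genes without overlap were then 41.7%, 68.4%, 60.7%, 58.3% and 58.0%.

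The first week of recovery was compared with the obstructed state. In R1W against UUO7, 7 of 9 were called and all 7 were higher, where 14.5% of all genes were called and 6.47% called higher. Egf rose by 2.79 on the log2 scale (adjusted p = 3.28e-04), Bsnd by 1.28 (adjusted p = 0.00533), Kcnj1 by 0.99 (adjusted p = 0.00411), Cldn10 by 0.63 (adjusted p = 0.00332) and Umod by 0.61 (adjusted p = 0.0169). The call for Umod in R1W against UUO7 was lost without UUO7 3 (adjusted p = 0.0521) or R1W 1 (adjusted p = 0.053). Cldn16 rose by 0.35 (adjusted p = 0.0345), and the call for Cldn16 in R1W against UUO7 was lost when any library of either group other than R1W 4 was left out (adjusted p from 0.0546 to 0.0897). Cldn19 (0.41, adjusted p = 0.0832) and Ptger3 (0.63, adjusted p = 0.0513) were not called as deposited. After rescaling both were, with 0.45 (adjusted p = 0.0416) and 0.66 (adjusted p = 0.0462), where 14.4% of all genes were, and both were called with only the 2 groups fitted (adjusted p = 0.0176 for Cldn19 in R1W against UUO7 and 0.00803 for Ptger3 in R1W against UUO7). In R4W against UUO7, 8 of 9 were called and all 8 were higher, where 48.4% of all genes were called and 17.6% called higher, and Egf was higher by 3.79. Among the recovery groups few members were called by limma. R2W against R1W gave 0 calls by limma, with 1 member at an unadjusted p under 0.05, where 0.00676% of all genes were called. R4W against R2W gave 0 calls by limma, with 0 members at an unadjusted p under 0.05, where 0.0609% were called. R4W against R1W gave 1 call, Cldn16, with 3 members at an unadjusted p under 0.05, where 19.1% were called. Bsnd in R4W against R1W was 0.76 (adjusted p = 0.059), and it was called after rescaling (0.82, adjusted p = 0.0448). Egf in R4W against R1W was 1.00 (adjusted p = 0.0782). The authors' deposited table calls Bsnd (0.83, adjusted p = 0.00077), Egf (1.09, adjusted p = 0.04) and Cldn16 (-0.30, adjusted p = 0.0487) in R4W against R1W. In R4W against R2W it calls Bsnd (0.55, adjusted p = 0.0411). No other member is called there in either comparison.

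UUO7 against UUO2 gave 5 calls among the 9, where 66.7% of all genes were called. Umod and Cldn16 were higher, Cldn16 by 0.49 (adjusted p = 4.68e-04). Kcnj1 (-0.59, adjusted p = 0.0148), Cldn10 and Ptger3 (-0.66, adjusted p = 0.0109) were lower. Without UUO2 replicate 2 there were 3 calls, and those of Kcnj1 and Ptger3 were lost. After rescaling 4 members were called, all 4 lower, where 31.9% of all genes were called lower.

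The balance among the 9 genes was also compared within each library, as the log2 ratio of a member to Slc12a1, which hardly depends on scaling between libraries. A two-sided exact permutation test of 4 against 4 animals was run for 8 members in 3 comparisons with sham, and 20 of 24 tests passed an adjusted p of 0.05. The smallest p this design allows is 0.0286 (adjusted over 24 tests, 0.0343), and each ratio called different below reached it. These directions depend on the reference: with Slc12a1 17 of the tests that passed were higher and 3 lower, and with Umod as the reference 19 passed, 8 higher and 11 lower. The share of all genes whose ratio to Slc12a1 would pass was not computed, so these counts have no share to stand beside. In UUO7 Slc12a1 itself fell by 2.31 while the median gene rose by 0.42. In both obstructed groups the ratio of a gene that did not change would also be higher. In UUO7 the ratio to Slc12a1 was higher than in sham for every member except Egf. Cldn16 to Slc12a1 rose by 3.27, from -4.57 ± 0.28 to -1.30 ± 0.24 (SD, n = 4), and Cldn19 to Slc12a1 rose by 2.96. Umod to Slc12a1 rose by 1.73, Ptger3 by 1.28, Cldn10 by 1.15, Kcnj1 by 1.07 and Bsnd by 0.81. Egf to Slc12a1 fell by 2.43. In UUO2 the ratio of Cldn19 was higher by 2.48, Cldn16 by 2.32, Ptger3 by 1.49, Cldn10 by 1.39, Kcnj1 by 1.21 and Umod by 0.90. Egf was at -2.77, and only Bsnd missed the threshold (0.52, exact p = 0.114). At 4 weeks of recovery the ratios of Cldn19 (1.27), Cldn16 (1.17), Kcnj1 (0.32) and Umod (0.24) were still higher and that of Egf was lower (-0.74). Bsnd (0.75, exact p = 0.0571), Cldn10 (-0.35, exact p = 0.0857) and Ptger3 (0.15, exact p = 0.286) did not pass.

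**Figure D3:**
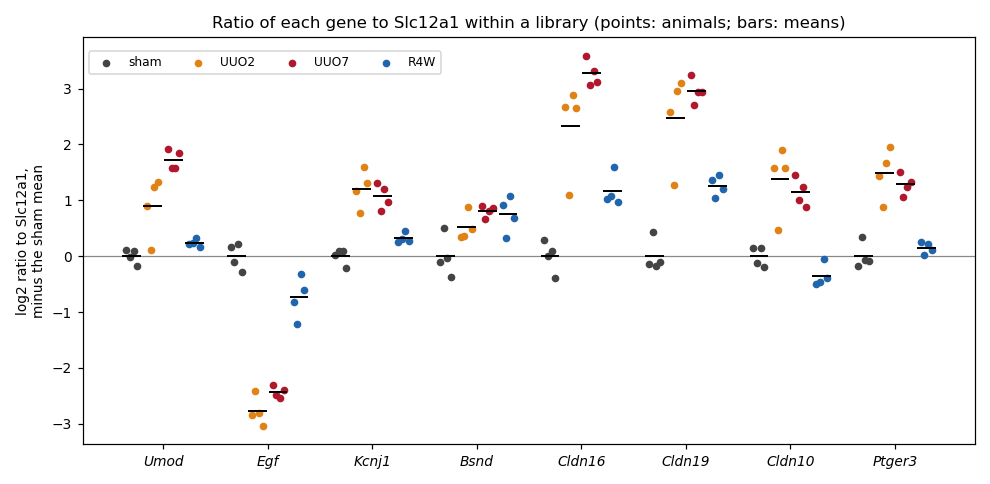
Log2 ratio of each of 8 genes to Slc12a1 within a library, minus the sham mean (vertical axis), in sham, UUO2, UUO7 and R4W; points are animals and bars are means. The Cldn16 bar is at 3.27 and the Egf bar at -2.43 in UUO7, against 1.17 and -0.74 in R4W.

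Within groups some of these genes varied together from animal to animal, and most pairs had a lower correlation without the UUO2 group. The deviations of log2 values from the group mean had a Pearson r of 0.94 between Slc12a1 and Kcnj1, 0.89 between Slc12a1 and Umod and 0.86 between Slc12a1 and Egf over the 24 libraries. Without the UUO2 group these were 0.79, 0.85 and 0.54 over 20 libraries. For Bsnd with Slc12a1 the r was 0.77 over 24 libraries and 0.29 over 20, and for Bsnd with Cldn10 it was 0.49 and -0.19. Cldn16 followed Slc12a1 less closely, with 0.34 over 24 libraries and 0.12 over 20, and Egf with Cldn19 had 0.05 and -0.24. Values of 1 library share its depth and its piece of tissue, so these are descriptions.

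Other genes of the segment were counted from lists by role. Of 10 transport partners, 8 were lower and 1 higher in UUO7 (median log2 fold change -0.81, all genes 0.42), and after rescaling 9 were lower and 1 higher (median -1.29). These counts stand beside 77.9% of all genes called in UUO7 as deposited and 73.0% after rescaling. Slc9a3, the sodium-proton exchanger, which is also abundant in the proximal tubule, went from 32.4 ± 1.10 to 6.88 ± 1.35 FPKM (log2 fold change -2.10). The basolateral potassium channel gene Kcnj10 went from 9.59 ± 0.64 to 3.20 ± 0.24 (-1.33). Maged2, whose product promotes the surface expression of NKCC2, went the other way, from 8.18 ± 1.56 to 34.7 ± 1.66 (1.97). At 4 weeks Kcnj10 (9.86 ± 1.28) was near its sham mean and not called, whereas Slc9a3 (-0.78) and Maged2 (1.16) remained called.

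Of 11 hormone receptors and regulators, 4 were higher and 6 lower in UUO7 (median -0.36, where 77.9% of all genes were called and 17.8% were called lower), and after rescaling 3 were higher and 6 lower (median -0.85, where 73.0% of all genes were called). Casr, the calcium-sensing receptor, fell by 1.69 on the log2 scale, from 7.40 ± 0.36 to 1.66 ± 0.64 FPKM, and the glucagon receptor gene Gcgr fell by 1.17. Cldn14, whose protein blocks the claudin-16 and claudin-19 pore, went from 0.065 ± 0.024 FPKM in sham to 3.07 ± 0.47 in UUO7 (1.93) and was 0.31 ± 0.22 in R4W, where it was not called (0.28). Cldn3, a tightening claudin found along the distal nephron, went from 13.6 ± 1.61 to 65.6 ± 2.68 (2.20) and was still 39.2 ± 5.69 at 4 weeks (1.46). Since no gene of the table has a mean under 1 FPKM, Cldn14 is in it through the obstructed groups, where it is high, and its difference is given as a description. Cldn14 is also among the 4 counted as higher as deposited, so that count depends in part on this filter.

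Among 7 measured genes enriched in the segment with other roles, 7 were lower in UUO7 as deposited (median -1.06, where 17.8% of all genes were called lower) and 7 after rescaling (median -1.48). In R4W 1 was lower as deposited (median -0.25, where 66.4% of all genes were called) and 4 were after rescaling (median -0.59, where 60.1% were). Wfdc15b went from 374 ± 59.6 to 69.1 ± 12.6 FPKM, Tmem207 from 8.35 ± 1.96 to 0.85 ± 0.038, Ppp1r1a from 182 ± 27.0 to 50.7 ± 6.30 and Tmem72 from 10.4 ± 0.95 to 4.51 ± 0.56. Their log2 fold changes were -2.42, -2.31, -1.82 and -1.06. Of 7 transcription factor genes, 4 were lower and 1 higher in UUO7 (median -0.66), and after rescaling 6 were lower and 1 higher (median -1.09), where 77.9% and 73.0% of all genes were called. As deposited Irx1 fell by 1.69, Esrrb fell by 1.25 and Ppargc1a fell by 0.76, while Irx2 rose by 0.85. In R4W 1 of the 7 was called higher and 6 were not called as deposited, and 5 were lower after rescaling, where 66.4% and 60.1% of all genes were called.

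The prostaglandin E2 list, read beside Ptger3, had 6 measured genes. In UUO7 4 were higher and 1 lower, and in R4W 5 were higher and 1 lower, where 77.9% and 66.4% of all genes were called. After rescaling 3 were higher and 1 lower in each, where 73.0% and 60.1% of all genes were called. The receptor gene Ptger4 went from 0.85 ± 0.21 FPKM in sham to 6.25 ± 0.48 in UUO7 (log2 fold change 1.97) and 4.50 ± 0.98 in R4W (1.56), and immune cells express it too. Its sham mean is under the mean of 1 FPKM that every gene of the table reaches, so Ptger4 is in it through the groups where it is higher. Its difference is given as a description, and the counts of higher genes as deposited include it. Leukocyte markers summed to 363 to 489 FPKM in UUO7 and 14.5 to 29.5 in sham, and their part in the Ptger4 value was not tested.

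Over all 24 libraries the genes most like the mean of the 9 members, among 7738 with a mean of at least 10 FPKM, were Atp4a, Rhbg, Ppp1r1a, Nudt4, Calb1, Efhd1, Atp6v1b1 and Stard8. Their Pearson r with the mean of the members' standardised log2 values ran from 0.93 to 0.95, a description over libraries that share groups. Calb1, a calcium-binding protein of the distal tubule, had a mean of 88.3 FPKM in sham, 9.24 at 7 days and 95.0 after 4 weeks of recovery. Rhbg and Atp6v1b1, known from intercalated cells of the collecting duct, had sham means of 25.2 and 67.1 FPKM, means at 7 days of 7.28 and 40.4, and means at 4 weeks of recovery of 27.9 and 97.4. These genes were chosen for their likeness to the members. Of 5 distal convoluted tubule markers, a list that holds Calb1, 4 were lower and 1 higher in UUO7, and 1 was lower and 1 higher in R4W. After rescaling 4 were lower in UUO7 and the other was not called, and 1 was lower and 1 higher in R4W. The shares of all genes called were 77.9% in UUO7 and 66.4% in R4W as deposited, and 73.0% and 60.1% after rescaling.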

How the data were processed

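The authors deposited 1 table of 14785 genes with a value for each of 24 libraries, made by polyA selection per the labels. The unit is not given in the sources used here, and FPKM was inferred from the deposited values (sums of 717415 to 830179 per library). Per the submitters' processing notes the tools were FastQC, Bowtie2, RSEM and DESeq2 with genome build mm10. No gene had a mean below 1. The authors' log2 fold changes and adjusted p-values are deposited in the same table.

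Values were tested as log2(FPKM + 1) with limma 3.58.1 in R 4.3.3 (1 model, 24 libraries, trend in eBayes, Benjamini-Hochberg over all genes). Rescaling divided each library by the median, over genes, of its ratio to the geometric mean. Depth was implied from whole-read steps in low values. Ratios to Slc12a1 used exact permutation tests. The members and lists were chosen with earlier results of these data known. In each list of other segment genes the up to 4 called genes of greatest change in UUO7 were named, and the 8 most alike genes by Pearson r. Ptger4 was named after its values were seen. A few genes are not reported here. The 3 macula densa genes listed, Enox1 and Ptger2 are not analysed here. Groups follow the sample titles. The title of R4W 2 says 4 weeks and its treatment label 2 weeks. The design text names 20 libraries, while 24 samples were used. There were 0 pairs of identical columns. The labels do not say whether the 4 samples were handled separately throughout, so p-values measure the spread between these samples. The test was checked on simulated data.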

Additional observations from a re-analysis of the deposited data

Results flagged for a closer look

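In 9 of 54 groups of 4 animals 1 library lay far from the other 3, by Dixon's test, where chance gives about 2.7. UUO2 replicate 2 accounts for 4: Egf at 58.2 FPKM (others 9.14 to 12.8), Slc12a1 at 170 (37.7 to 52.6), Kcnj1 at 73.9 (28.9 to 31.2) and Bsnd at 26.4 (7.48 to 7.93). In sham replicate 2 Bsnd was 42.5 FPKM (others 23.5 to 26.2). R1W replicate 2 had Cldn19 at 51.7 FPKM (41.6 to 42.9) and Ptger3 at 8.45 (10.96 to 11.3). R2W replicate 1 had Umod at 1489 FPKM (1776 to 1807) and Cldn16 at 14.4 (21.3 to 21.9).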

How the results depend on the processing

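The count of members called in UUO7 against sham was 9 in each of the fits with 1 library left out, and ranged from 7 to 9 in UUO2 and from 3 to 4 in R4W against sham, and from 5 to 7 in R1W against UUO7. Rescaling moved R1W against sham from 4 to 9. R4W against R1W (1 call) gave 3 with a pseudocount of 10, 2 with a minimum mean of 10 FPKM, 0 with only those groups fitted, 4 without UUO2, and 0 to 3 with 1 library left out. UUO7 against UUO2 (5 calls) gave 2 with only those groups fitted, 3 to 5 with 1 library left out, and 3 rescaled without UUO2 replicate 2, an alternative chosen after seeing the data. Among the single differences recomputed (each obstructed group, R1W and R4W against sham, and some others), signs turned for some that were not called as deposited: rescaled, Kcnj1 in R4W against sham was -0.26, Umod in R4W against sham -0.35 and Umod in R1W against sham -0.41 (this last one called). Umod in R4W against sham was -0.021 with R4W 2 placed in R2W or left out and -0.041 without R4W 4, and Umod in R1W against sham was -0.020 without R1W 1 and up to 0.085 with another library left out. Ptger3 in R4W against sham was 0.072 without sham 2 (also with UUO2 2 left out), 0.0012 without sham 4 and 0.073 without R4W 3. The cause was not tested.

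With the replicate number as a block, R1W against UUO7 gave 8 calls in place of 7, and the other counts by limma were as without it. In no comparison was the correlation of every same-numbered pair over 0.1 (mean r -0.17 to 0.15), and 0 to 6 of 8 libraries matched their own number best. Paired by number, 0 ratio tests passed, since 4 pairs allow no p under 0.125. With 1 library left out 15 to 20 ratio tests passed.

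Without counts the depth of the UUO2 libraries is unknown, and genes with a mean under 1 FPKM are not analysed here.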
